A study of Homo sapiens with 12 samples.

Results

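The transcripts that rose and fell after knockdown of IGF2BP3 in HepG2 cells were described by pathway and gene class. Every gene that passed the filter on low counts in the 6 Input (RNA) libraries was a member, which gave 14759 of the 58721 genes in the files, and 6 of the 12 libraries of the series were Input. HepG2 is a line of human liver cancer cells with an epithelial-like form, and all libraries came from this 1 line. The control group (siControl, 3 libraries) received a nontargeting AllStars siRNA and the knockdown group (siIGF2BP3, 3 libraries) a predesigned siRNA against IGF2BP3 (Dharmacon). Both groups were collected 2 days after transient knockdown and were given 100 μg/mL cycloheximide, which arrests ribosomes on the mRNA, for 4 min before lysis. The other 6 libraries held ribosome-protected fragments (RPF, or footprints) of the same groups. Nothing in the labels said that the replicates were separate cultures, so the p-values measured the spread between these libraries, which may be technical.

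IGF2BP3 is an RNA-binding protein that is abundant in fetal tissues, low in most adult tissues and made again in many cancers. The members of its family bind mRNAs, often at sites with modified bases, and are known to alter how long the bound mRNAs last, where they go and how well they are translated. IGF2, one of the mRNAs that gave the family its name, is itself a fetal growth factor.

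The Input libraries held between 11219750 and 14797573 counts. Hepatocyte markers were all present, with 10 of 10 at 1 CPM or more in all 6 libraries (CPM is a count scaled to a fixed library total). Their summed level was 61039 to 61734 normalized CPM in siControl and 53938 to 54344 in siIGF2BP3, and 6 of the 10 were called lower. Of the fibroblast markers 1 of 8 reached that level, COL3A1, DCN, LUM, THY1 and FAP were at 0 in all 6 libraries, and the sum was 7.87 to 8.37 in siControl and 7.5 to 9.89 in siIGF2BP3. Of the endothelial markers 0 of 7 did, TEK and ERG were at 0, and the sums were 2.18 to 3.49 and 2.3 to 3.9. Of the immune markers 4 of 8 did, with sums of 3744 to 3922 and 3428 to 3492 and with PTPRC and CD3E at 0. In that set 1 marker was called lower. All libraries came from 1 line, so this sum does not by itself show immune cells. Bile duct markers (5 of 7, CFTR at 0) had sums of 1545 to 1596 and 1444 to 1466, and neural markers (2 of 6, SOX2 at 0) of 84 to 90.6 and 69.4 to 82.5. In the bile duct and the neural set 1 marker each was called lower, and 0 of the fibroblast and endothelial markers were called. The 50 most abundant genes took at least 18.8% of the counts in each siControl library and at most 17.7% in each siIGF2BP3 library. The part of these shifts in the results below was not tested. Bulk RNA gives shares of a library, so fewer cells of a kind and less RNA per cell cannot be told apart.

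The targeted transcript was lower in every knockdown library. IGF2BP3 (chr7:23310209-23470467, hg38) stood at 135, 132 and 129 in the siControl libraries and 102, 96.7 and 103 in the siIGF2BP3 libraries. These are normalized CPM, scaled to the total of the tested genes and by TMM factors, and the groups did not overlap (log2 fold change -0.39 ± 0.05, adjusted p = 1.06e-05). Here and below the log2 fold change is siIGF2BP3 over siControl and is followed by its SE, and the adjusted p is from edgeR's quasi-likelihood test with Benjamini-Hochberg adjustment over all 14759 genes. The related IGF2BP1 (530 to 503 normalized CPM, adjusted p = 0.358) and IGF2BP2 (381 to 391, adjusted p = 0.687) did not pass the test. The mean footprint level of IGF2BP3 was 76.3 CPM in siControl and 25 CPM in siIGF2BP3, a log2 ratio of -1.59.

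At an adjusted p under 0.05, 879 genes were called (5.96% of those tested), of which 598 were higher (4.05%) and 281 lower (1.9%) in siIGF2BP3. The sizes were small. The median log2 fold change was 0.31 among the higher and -0.21 among the lower genes, against 0.00 over all genes tested, and 64 of the called genes changed by at least 0.58 on the log2 scale, 60 of them higher. DESeq2 with its own size factors called 396 higher and 322 lower. The 3 libraries of the groups did not overlap for 3639 genes (24.7%), with 2000 higher (13.6%) and 1639 lower (11.1%). Leaving out a library changed the count of calls. Without siControl replicate 3 there were 444 (332 higher and 112 lower), without siIGF2BP3 replicate 3 there were 487 (355 and 132), without siControl replicate 2 there were 603 (426 and 177), and without siControl replicate 1 there were 907 (470 and 437). A total of 304 genes were called under all 6 omissions, 224 higher and 80 lower. A gene named below with values was among these unless the text says otherwise.

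**Figure D1:**
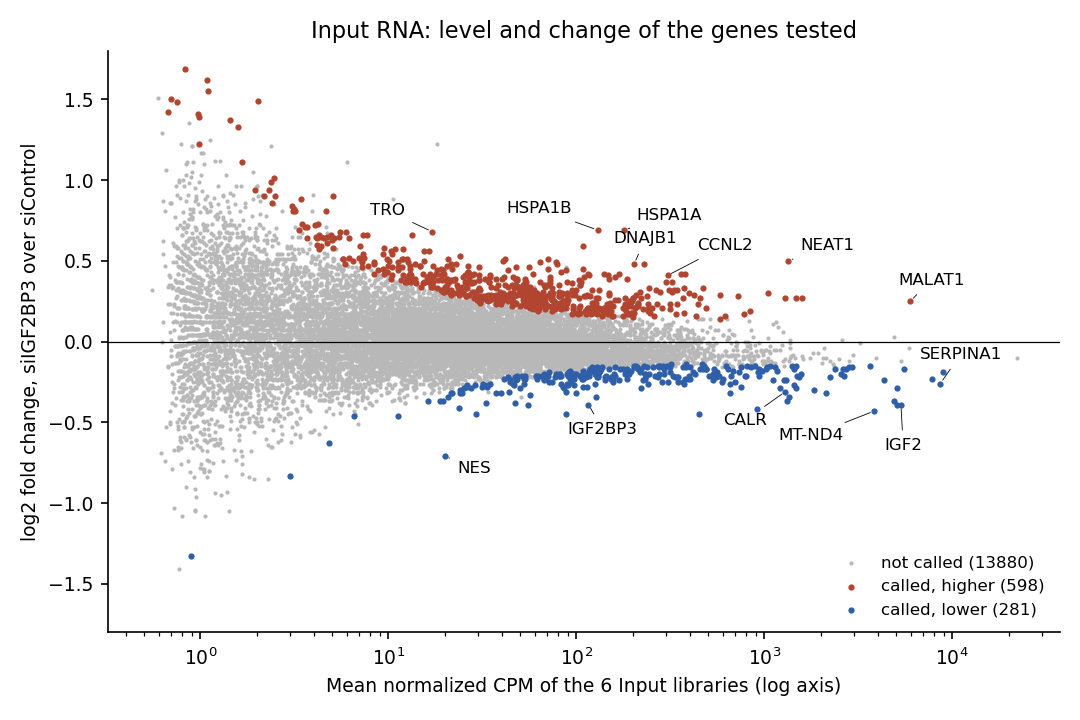
Mean normalized CPM over the 6 Input libraries (log axis) against the log2 fold change of siIGF2BP3 over siControl, 1 point for each of the 14759 genes tested. The 598 higher (red) and 281 lower (blue) called genes lie mostly within 0.5 of zero, and the lower ones sit at higher levels.

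Ranked by size among genes with a mean of at least 10 CPM and no overlap between groups, the rises were headed by HSPA1A and HSPA1B, described below, and by TRO, a trophinin family adhesion protein. TRO stood at 11.6, 14.6 and 13.1 in the siControl libraries and 21.6, 20.4 and 21.3 in the siIGF2BP3 libraries (log2 fold change 0.68 ± 0.10, adjusted p = 0.000101). MYH3, the embryonic myosin heavy chain, rose from 13.3 ± 0.603 to 19.6 ± 0.697 normalized CPM (SD, n = 3; log2 fold change 0.56 ± 0.10, adjusted p = 0.000603). GDPD5, a glycerophosphodiesterase, rose by 0.51 (adjusted p = 4.76e-05), ZFPM1, a cofactor of GATA factors, by 0.54 (adjusted p = 0.00672) and MYO7A, an unconventional myosin, by 0.53 (adjusted p = 0.000791). The 15 steepest falls held NES, several mitochondrial mRNAs, IGF2 and ICAM1, with MFAP1, a spliceosome protein, lower by 0.38 (adjusted p = 0.000453). ICAM1, an adhesion receptor for leukocytes, fell from 62.7 ± 4.42 to 47.7 ± 3.7 normalized CPM (SD, n = 3; log2 fold change -0.39 ± 0.07, adjusted p = 0.000603). The lowest p of all belonged to MST1P2, an unprocessed pseudogene of MST1 whose reads may be shared with its relatives, at 189, 198 and 191 in the siControl libraries and 265, 267 and 273 in the siIGF2BP3 libraries (log2 fold change 0.48 ± 0.04, adjusted p = 6.30e-07).

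Called genes were sorted into 60 lists of pathways and gene classes. Of the 2678 list genes tested, 267 were called. A gene can belong to more than 1 list and then counts in each, so the lists are not separate sets. Falls were found among mitochondrial mRNAs, ribosomal proteins, secreted liver proteins, the cytoskeleton and chaperones of the endoplasmic reticulum (ER), and rises among a few heat shock genes, splicing regulators, chromatin modifiers, nuclear noncoding RNAs and bile acid carriers. Each list is described by its counts and its median log2 fold change, to be read against 4.05% higher, 1.9% lower and a median of 0.00 over all genes. These shares vary with level and length, for which the lists were not matched. In the top quintile by mean level 7.32% were higher and 7.42% lower (median -0.04). In the quintile with the longest summed exons 7.79% were higher and 0.813% lower.

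**Figure D2:**
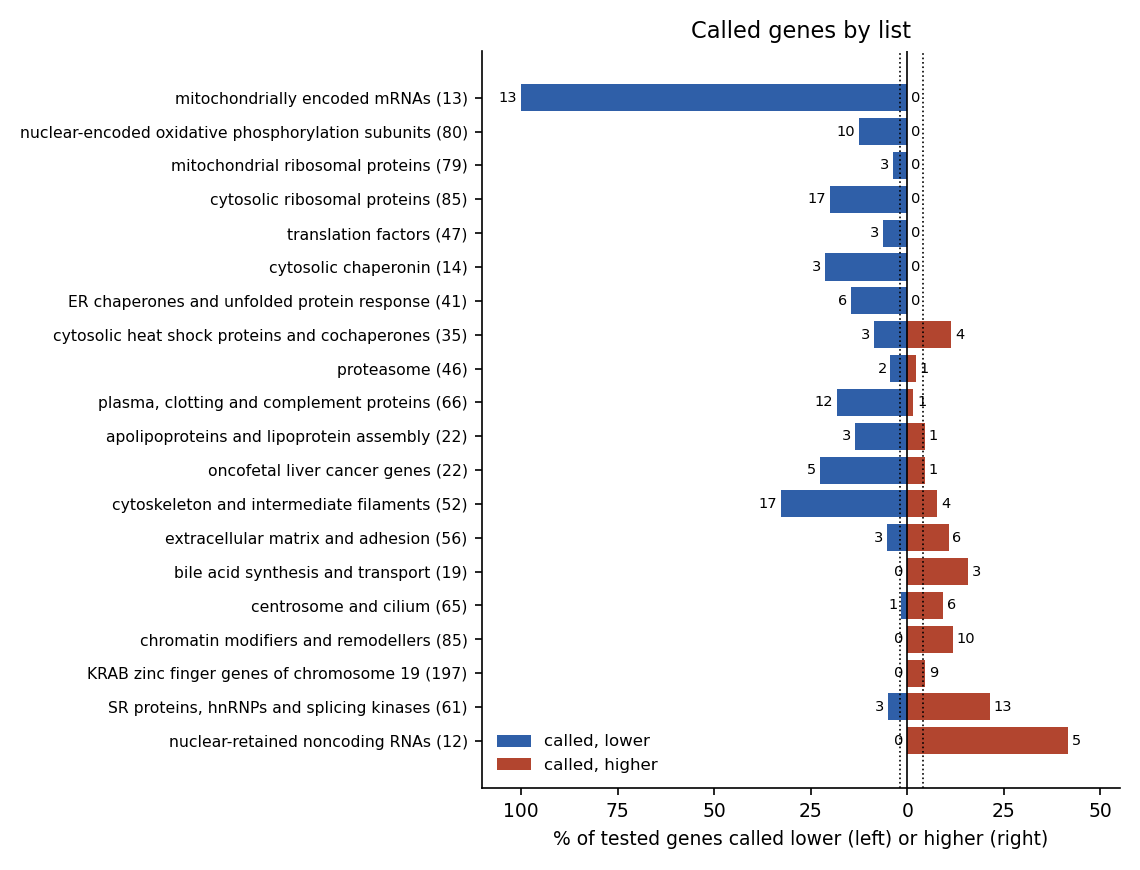
Share of tested genes called lower (left, blue) or higher (right, red) in 20 of the 60 lists, with the number of genes tested in brackets and the number called beside each bar. Dotted lines mark the shares over all genes (1.9% and 4.05%), and the 20 lists were picked after the counts were seen.

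A few cytosolic chaperones rose and several ER chaperones fell. Among 35 cytosolic heat shock proteins and cochaperones 4 rose and 3 fell (median -0.07), while 0 of 41 ER chaperone and unfolded protein response genes rose and 6 fell (median -0.09). Of the risers, HSPA1A, HSPA1B and DNAJB1 are heat-inducible genes, a class that heat shock factor is known to switch on at elements with the letters GAANNTTC. These 3 promoters are shown because they belong to the chaperones whose rise held in every omission of a library. They come from RefSeq (GRCh38.p14) and end at the last base before RefSeq's transcript start, with the element in capitals. HSPA1A is at chr6:31815417-31815542, HSPA1B at chr6:31827613-31827737 and DNAJB1, on the minus strand, at chr19:14518398-14518494.
HSPA1A: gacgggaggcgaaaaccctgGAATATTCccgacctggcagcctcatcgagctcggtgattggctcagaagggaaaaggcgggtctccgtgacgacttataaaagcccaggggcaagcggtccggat
HSPA1B: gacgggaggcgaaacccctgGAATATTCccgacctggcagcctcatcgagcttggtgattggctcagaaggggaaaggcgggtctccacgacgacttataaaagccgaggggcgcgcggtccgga
DNAJB1: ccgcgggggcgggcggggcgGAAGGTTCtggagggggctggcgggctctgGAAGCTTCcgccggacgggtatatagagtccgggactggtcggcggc

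The element began 106 bases before the start of HSPA1A, 105 before that of HSPA1B, and 77 and 47 before that of DNAJB1. Searched on both strands of the RefSeq windows, GAANNTTC (a palindrome) occurred for 2241 of 27305 genes (8.21%), for 12 of the 29 listed genes with a window (41.4%) for 3 of the 4 risers, CDC37 being without it, and for 1 of the 3 fallers, HSP90AB1. A match is a description of the letters only.

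HSPA1A (chr6:31815464-31817946), a cytosolic HSP70, stood at 115, 151 and 143 in the siControl libraries and 221, 221 and 220 in the siIGF2BP3 libraries (log2 fold change 0.69 ± 0.07, adjusted p = 7.03e-06). Its near-identical neighbour HSPA1B (chr6:31827735-31830255) stood at 82.2, 112 and 105 in the siControl libraries and 162, 162 and 160 in the siIGF2BP3 libraries (log2 fold change 0.69 ± 0.08, adjusted p = 5.07e-05). The knockdown libraries were all above the controls in both genes, siControl replicate 1 was the lowest control, and since both carried fractional counts in all 6 libraries reads may be split between the copies. DNAJB1, the HSP40 partner of HSP70, stood at 151, 180 and 179 in the siControl libraries and 236, 229 and 244 in the siIGF2BP3 libraries (log2 fold change 0.48 ± 0.05, adjusted p = 7.03e-06), with no overlap. CDC37, a kinase cochaperone, rose by 0.22 but lost its call without siControl replicate 2, siIGF2BP3 replicate 1 or siIGF2BP3 replicate 3. Other heat shock genes did not pass the test, among them the heat-inducible HSPH1 (0.14, adjusted p = 0.198), HSPB1 (0.15, adjusted p = 0.13) and BAG3 (0.07, adjusted p = 0.639) and the constitutive HSPA8 (-0.06, adjusted p = 0.468). The 3 falls in the list were HSP90AB1 (-0.17, adjusted p = 0.0243), HSPA4 and DNAJB9, the last of which is an ER-resident cochaperone although it was placed in this list, and 0 of them held without siControl replicate 3.

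In the ER, the folding factors CALR, HSPA5 and HSP90B1 share an ER stress response element, the letters CCAAT and CCACG with 9 bases between them, which is known to bind unfolded protein response factors. It was found on either strand in the windows of 25 of 27305 genes (0.0916%), of 8 of the 39 listed genes with a window (20.5%), and of 3 of the 5 fallers with a window. The promoters of these 3 are shown as above, with the element in capitals in either orientation. HSPA5, on the minus strand, is at chr9:125241344-125241429, HSP90B1 at chr12:103930196-103930409 and CALR at chr19:12938364-12938608.
HSPA5: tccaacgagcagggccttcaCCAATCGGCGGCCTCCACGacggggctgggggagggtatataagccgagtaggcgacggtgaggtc
HSP90B1: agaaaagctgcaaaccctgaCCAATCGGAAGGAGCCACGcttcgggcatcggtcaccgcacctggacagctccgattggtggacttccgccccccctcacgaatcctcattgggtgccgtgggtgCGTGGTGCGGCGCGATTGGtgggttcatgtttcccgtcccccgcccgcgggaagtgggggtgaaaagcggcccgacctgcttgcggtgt
CALR: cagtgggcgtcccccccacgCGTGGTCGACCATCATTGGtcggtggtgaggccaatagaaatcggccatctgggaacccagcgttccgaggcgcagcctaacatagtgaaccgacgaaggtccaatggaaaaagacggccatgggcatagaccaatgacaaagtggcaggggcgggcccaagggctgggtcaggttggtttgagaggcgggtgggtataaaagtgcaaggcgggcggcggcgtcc

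CALR (calreticulin, chr19:12938578-12944489), a calcium-binding lectin chaperone, stood at 1311, 1487 and 1504 in the siControl libraries and 1142, 1166 and 1151 in the siIGF2BP3 libraries (log2 fold change -0.31 ± 0.05, adjusted p = 0.00021). HSPA5 (BiP, chr9:125234853-125241330), the HSP70 of the ER, stood at 1253, 1413 and 1357 in the siControl libraries and 1093, 1125 and 1065 in the siIGF2BP3 libraries (log2 fold change -0.29 ± 0.05, adjusted p = 0.000311). Every knockdown library lay below every control in both. PDIA3, a disulfide isomerase, fell from 644 ± 25.4 to 542 ± 7.59 normalized CPM (SD, n = 3; log2 fold change -0.25 ± 0.04, adjusted p = 0.000816). HSP90B1 fell by 0.17 (adjusted p = 0.0276) and kept its call in 2 of the 6 omissions. The 6 falls of this list became 3 without siControl replicate 2, siControl replicate 3 or siIGF2BP3 replicate 3, and 10 without siControl replicate 1. Of 14 genes listed under the cytosolic chaperonin, the barrel that folds actin and tubulin, 3 were called lower (CCT3, CCT5 and CCT7). All 14 genes lay below zero (median -0.10). The count of calls was 0 without siControl replicate 2, siControl replicate 3 or siIGF2BP3 replicate 3, and 1 without siIGF2BP3 replicate 1 or 2.

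The mitochondrially encoded mRNAs fell together. All 13 mRNAs of the mitochondrial genome, which encode core subunits of the respiratory chain and ATP synthase, were called lower (median -0.31), and in each the groups did not overlap. MT-ND4 shares bases with MT-ND4L, and MT-CO3 with MT-ATP6, on the same strand, so their calls are not fully separate. Of the other mitochondrially encoded genes tested, 0 of 7 transfer RNAs (median -0.15) and 0 of 2 ribosomal RNAs (median -0.22) were called. The summed level of the mRNAs was 20764, 20849 and 21344 in the siControl libraries and 15585, 17034 and 16976 in the siIGF2BP3 libraries, in normalized CPM. MT-ND4, a subunit of complex I, stood at 4309, 4447 and 4484 in the siControl libraries and 3066, 3462 and 3299 in the siIGF2BP3 libraries (log2 fold change -0.43 ± 0.05, adjusted p = 7.03e-06). MT-CO1, the catalytic subunit of cytochrome c oxidase, stood at 5519, 5575 and 5538 in the siControl libraries and 4093, 4436 and 4320 in the siIGF2BP3 libraries (log2 fold change -0.37 ± 0.05, adjusted p = 9.45e-06). The complex IV subunit MT-CO3 fell by 0.45 and the smallest fall was that of MT-ND2 (-0.21, adjusted p = 0.0121). Between 11 and 13 were called in every omission, MT-ND2, MT-ND3 and MT-ND1 being those that lost a call in some. All 13 carried fractional counts, so none could be tested when such genes were left out. The share of all counts on the mitochondrial genome was 2.07%, 2.05% and 2.11% in siControl and 1.59%, 1.74% and 1.75% in siIGF2BP3.

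Of 80 subunits of oxidative phosphorylation 10 were called lower and 0 higher, 71 lay below zero, and the median was -0.09. The 10 calls depended on the libraries, with 1 left without siControl replicate 3 or siIGF2BP3 replicate 3, 3 without siControl replicate 2 or siIGF2BP3 replicate 2, and 6 without siIGF2BP3 replicate 1. Mitochondrial ribosomal proteins had 3 of 79 called lower (median -0.10), 6 without siControl replicate 1, and 0 without siControl replicate 2 or 3 or siIGF2BP3 replicate 2 or 3.

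Some protein synthesis genes fell, by small amounts. Of 85 cytosolic ribosomal protein genes 17 were called lower (20%), 0 higher, and 79 lay below zero (median -0.10). Their summed level was 59404, 65990 and 62341 in the siControl libraries and 56107, 58249 and 57859 in the siIGF2BP3 libraries, without overlap, and siControl replicate 1 was the control nearest to the knockdown values. RPLP2, an acidic protein of the ribosomal stalk, stood at 1429, 1701 and 1611 in the siControl libraries and 1320, 1336 and 1270 in the siIGF2BP3 libraries (log2 fold change -0.27 ± 0.05, adjusted p = 0.00188). The large-subunit proteins RPL14 (fell by 0.26, adjusted p = 0.00226) and RPL32 (fell by 0.25, adjusted p = 0.00474) were next in size. The 17 calls became 38 without siControl replicate 1, 6 without siControl replicate 2, siControl replicate 3 or siIGF2BP3 replicate 3, 9 without siIGF2BP3 replicate 1 and 10 without siIGF2BP3 replicate 2. These genes have many processed copies in the genome, and 1 of the 85 had whole counts in all 6 libraries, so reads may be split between copies. Translation factors (3 of 47 lower, 6.38%) and ribosome biogenesis genes (3 of 50 lower, 6%) had medians of -0.08 and -0.04. Both shares were below the 7.42% lower among all genes of the top quintile by mean level. Aminoacyl-tRNA synthetases had 0 of 23 lower and 1 higher (median -0.01). Without siControl replicate 1 the count for translation factors was 7, without siControl replicate 3 it was 1 and that for ribosome biogenesis 0, and the latter was 1 without siIGF2BP3 replicate 2 and 0 without siIGF2BP3 replicate 3.

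Some genes of secreted liver proteins fell as well. Of 66 plasma, clotting and complement proteins 12 were lower (18.2%) and 1 higher, 48 lay below zero, and the median was -0.09. Their summed level was 56241, 59270 and 57590 in the siControl libraries and 50461, 51730 and 51002 in the siIGF2BP3 libraries, without overlap. TF, transferrin, the iron carrier of plasma, stood at 5362, 5859 and 5584 in the siControl libraries and 4452, 4740 and 4569 in the siIGF2BP3 libraries (log2 fold change -0.29 ± 0.05, adjusted p = 0.000362). SERPINA1, which encodes alpha-1 antitrypsin, stood at 8794, 9911 and 9562 in the siControl libraries and 7636, 8041 and 7898 in the siIGF2BP3 libraries (log2 fold change -0.26 ± 0.05, adjusted p = 0.00171). F2 (prothrombin) fell from 405 ± 9.16 to 339 ± 4.14 normalized CPM (SD, n = 3; log2 fold change -0.26 ± 0.04, adjusted p = 0.00041). ALB, albumin, a hepatocyte marker, stood at 9339, 9558 and 9426 in the siControl libraries and 8402, 8406 and 8107 in the siIGF2BP3 libraries (log2 fold change -0.19 ± 0.05, adjusted p = 0.0128), and its call was lost without siControl replicate 3 or siIGF2BP3 replicate 3. The TF gene shares bases with INHCAP and SRPRB on the same strand, so its count is uncertain to that extent. The lone rise, PROZ, held in 1 of the 6 omissions. The 12 lower calls ranged from 6, without siControl replicate 3, to 14. Of 22 apolipoprotein and lipoprotein assembly genes 3 were lower (1 without siControl replicate 3) and 1 higher, and 7 lay above zero. The riser, SCARB1, held in 1 of the 6 omissions, and the fallers APOH and APOA5 in 3 and 2. The other faller, APOA1, the main protein of high density lipoprotein, stood at 1653, 1608 and 1606 in the siControl libraries and 1318, 1352 and 1299 in the siIGF2BP3 libraries (log2 fold change -0.29 ± 0.04, adjusted p = 8.81e-05).

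Oncofetal genes are made in fetal liver and again in liver cancer. Of 22 such genes 5 were lower and 1 higher (median -0.07), with between 4 and 7 lower in the omissions. Of the fallers, AFP was also in the list of plasma proteins, GPC3 in that of matrix and adhesion, and KRT19 in that of the cytoskeleton. IGF2 (chr11:2129112-2149603), the fetal growth factor, stood at 5958, 5984 and 6217 in the siControl libraries and 4535, 4960 and 4327 in the siIGF2BP3 libraries (log2 fold change -0.39 ± 0.05, adjusted p = 1.26e-05). AFP, alpha-fetoprotein, stood at 8415, 8509 and 8272 in the siControl libraries and 7175, 7239 and 7080 in the siIGF2BP3 libraries (log2 fold change -0.23 ± 0.04, adjusted p = 0.00219). Neither pair of groups overlapped, and the IGF2 locus shares bases with INS-IGF2 on the same strand and with IGF2-AS on the opposite strand, so reads may be shared among them. GPC3, a cell surface proteoglycan, fell by 0.23 (adjusted p = 0.00252) and KRT19, a keratin of bile duct and progenitor cells, by 0.24 (adjusted p = 0.000791). ROBO1, an axon guidance receptor, was the riser (log2 fold change 0.27 ± 0.04, adjusted p = 0.00029). Of 30 transcripts reported as IGF2BP targets 2 were lower, IGF2 and ACTB, and 1 was higher, a call lost without siControl replicate 3 or siIGF2BP3 replicate 1 or 3 (median -0.02).

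A number of cytoskeleton genes fell, with 17 of 52 lower (32.7%) and 4 higher (median -0.09), and 12 to 16 lower in the omissions. ACTB, beta-actin, stood at 4732, 4654 and 4647 in the siControl libraries and 3879, 4054 and 3974 in the siIGF2BP3 libraries (log2 fold change -0.24 ± 0.04, adjusted p = 0.00146). TUBB2A, a beta-tubulin, fell from 63.5 ± 1.16 to 50.5 ± 4.39 normalized CPM (SD, n = 3; log2 fold change -0.33 ± 0.06, adjusted p = 0.00204). NES, nestin, an intermediate filament protein of progenitor cells, stood at 21.6, 24.6 and 28.5 in the siControl libraries and 13.3, 19.1 and 12.7 in the siIGF2BP3 libraries (log2 fold change -0.71 ± 0.13, adjusted p = 0.00126). These fell in all knockdown libraries. Among the risers were SPTAN1 (alpha-spectrin), higher by 0.22 (adjusted p = 0.00412), and the muscle-type tropomyosin TPM2 (0.38, adjusted p = 0.000269). Of 56 matrix and adhesion genes 6 rose, among them the collagens COL7A1 (0.39, adjusted p = 0.000799) and COL27A1 (0.32, adjusted p = 0.000173), and 3 fell, among them the laminin chain LAMB1 (-0.22, adjusted p = 0.00391). Without siControl replicate 1 there were 3 rises and 5 falls. Of 65 centrosome and cilium genes 6 rose (9.23%) and 1 fell. This compares with 7.79% higher in the quintile of all genes with the longest summed exons. In every omission 6 or 7 rose and 0 fell, and the transport protein IFT172 was higher by 0.38 (adjusted p = 0.00103).

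**Figure D3:**
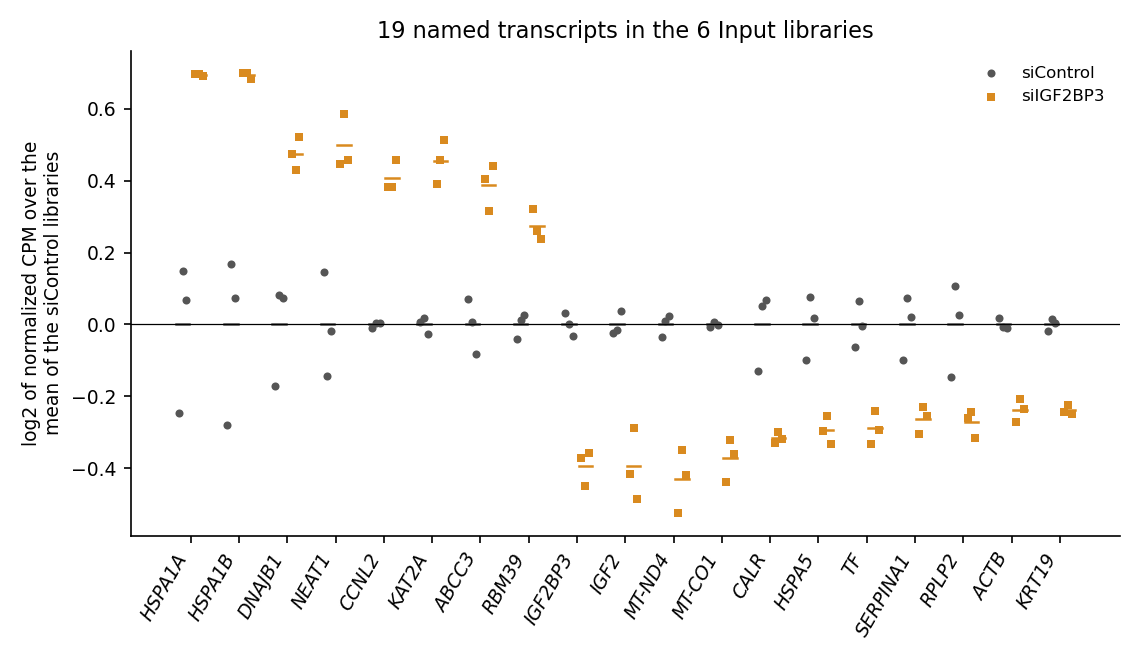
Normalized CPM of 19 named genes in each Input library as log2 over the siControl mean, with siControl as grey circles, siIGF2BP3 as orange squares and bars at the group means. The groups do not overlap in any of the 19, which were picked from called genes after their values were seen. Over all genes tested 24.7% did not overlap.

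Several splicing regulators rose. Of 61 SR proteins, hnRNPs and splicing kinases 13 were higher and 3 lower (median 0.01), with 7 higher without siControl replicate 3 and 1 lower without siControl replicate 3 or siIGF2BP3 replicate 2 or 3. RBM39, a splicing factor that works with U2AF, stood at 1302, 1349 and 1362 in the siControl libraries and 1670, 1603 and 1577 in the siIGF2BP3 libraries (log2 fold change 0.27 ± 0.04, adjusted p = 0.000296). RBM5, a splicing regulator of apoptosis genes, rose from 216 ± 3 to 271 ± 13.1 normalized CPM (SD, n = 3; log2 fold change 0.33 ± 0.05, adjusted p = 5.07e-05). LUC7L, of the U1 snRNP, rose by 0.29 (adjusted p = 0.000175) and CLK1, a kinase of SR proteins, by 0.23 (adjusted p = 0.00188). Among the fallers was HNRNPK (-0.22, adjusted p = 0.00276), a poly(C)-binding protein. Only 6 of these 61 genes had whole counts in all libraries, and when such genes alone were tested 0 rises were called. The 57 core spliceosome genes gave 2 rises and 2 falls (4 falls without siIGF2BP3 replicate 1 and 0 without siControl replicate 3, and 1 rise without siControl replicate 2 or 3 or siIGF2BP3 replicate 1 or 3), with the branch-site factor SF3B1 higher (log2 fold change 0.27 ± 0.04, adjusted p = 0.000296). CCNL2, a cyclin that regulates splicing, was among the 10 genes with the lowest p and stood at 261, 264 and 264 in the siControl libraries and 343, 343 and 361 in the siIGF2BP3 libraries (log2 fold change 0.41 ± 0.04, adjusted p = 6.55e-06). OGT, the enzyme that adds O-linked GlcNAc to proteins, was another, at 143, 151 and 136 in the siControl libraries and 190, 190 and 196 in the siIGF2BP3 libraries (log2 fold change 0.42 ± 0.05, adjusted p = 7.03e-06).

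Several nuclear noncoding RNAs rose. Of 12 nuclear-retained noncoding RNAs 5 were higher and 0 lower (median 0.19), and 2 were higher without siControl replicate 2, siControl replicate 3 or siIGF2BP3 replicate 1. NEAT1 (chr11:65422774-65445540), the scaffold of paraspeckles, stood at 1231, 1007 and 1098 in the siControl libraries and 1515, 1669 and 1528 in the siIGF2BP3 libraries (log2 fold change 0.50 ± 0.06, adjusted p = 7.03e-06), without overlap. MALAT1, an RNA of nuclear speckles, stood at 5481, 5455 and 5454 in the siControl libraries and 7266, 6614 and 5633 in the siIGF2BP3 libraries (log2 fold change 0.25 ± 0.06, adjusted p = 0.016). Its knockdown values spread widely, replicate 3 lay just above the controls, and the call was lost without siControl replicate 1, 2 or 3 or siIGF2BP3 replicate 1. Of 25 small nucleolar RNA hosts 3 rose (median 0.11), and 1 without siControl replicate 2 or 3 or siIGF2BP3 replicate 1 or 3.

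Some chromatin genes rose. Of 85 chromatin modifiers and remodellers 10 were higher and 0 lower, 61 lay above zero (median 0.04), and 4 were higher without siControl replicate 3 or siIGF2BP3 replicate 2. Without siControl replicate 1 or siIGF2BP3 replicate 1 there were 8 higher and 2 lower. With an offset for exon length there were 9 higher and 4 lower (median 0.02). KAT2A, a histone acetyltransferase, stood at 59.8, 60.3 and 58.5 in the siControl libraries and 78.1, 81.8 and 84.9 in the siIGF2BP3 libraries (log2 fold change 0.45 ± 0.06, adjusted p = 9.98e-06). ASXL1, a partner of a histone H2A deubiquitinase, stood at 255, 267 and 259 in the siControl libraries and 340, 337 and 331 in the siIGF2BP3 libraries (log2 fold change 0.37 ± 0.04, adjusted p = 7.03e-06). Both were higher in every knockdown library. KRAB zinc finger proteins are mostly repressors of mobile elements. Of 197 chromosome 19 genes listed as such by symbol alone, without a check of the domain, 9 were higher and 0 lower. This is 4.57% higher against 4.05% over all genes. Of these 197, 131 lay above zero (median 0.07), with 4 higher without siControl replicate 2, siControl replicate 3 or siIGF2BP3 replicate 3 and 5 without siIGF2BP3 replicate 1. Mediator, cohesin and general transcription genes had 1 of 59 higher and 0 lower (median -0.01).

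Among genes of hepatic transport and metabolism, 3 bile acid carriers rose. Of 19 bile acid genes these 3 rose (15.8%), and 3 did in every omission. ABCC2, the canalicular exporter of conjugates, stood at 647, 647 and 671 in the siControl libraries and 814, 786 and 795 in the siIGF2BP3 libraries (log2 fold change 0.28 ± 0.04, adjusted p = 0.000119). ABCC3, its basolateral relative, stood at 93.8, 89.6 and 84.3 in the siControl libraries and 118, 111 and 121 in the siIGF2BP3 libraries (log2 fold change 0.38 ± 0.05, adjusted p = 5.27e-05). SLC51A, a subunit of the basolateral bile acid transporter, rose by 0.37 (adjusted p = 0.00149). All 3 export bile acids or their conjugates from the cell. ACSL1, which activates long fatty acids, rose from 95 ± 1.98 to 126 ± 6.73 normalized CPM (SD, n = 3; log2 fold change 0.40 ± 0.05, adjusted p = 1.32e-05). SLC2A3, a glucose transporter, fell from 1514 ± 77.2 to 1192 ± 30.8 (log2 fold change -0.34 ± 0.05, adjusted p = 2.81e-05). Of 29 genes of fatty acid oxidation and PPARA targets 4 were lower (13.8%) and 1 higher, with 2 lower without siControl replicate 2 and 1 without siControl replicate 3 or siIGF2BP3 replicate 2 or 3. Of 33 genes of the TCA cycle and pentose phosphate pathway 3 were lower (9.09%) and 1 higher (median -0.11), with 1 lower without siControl replicate 2 or siIGF2BP3 replicate 1 and 0 without siControl replicate 3 or siIGF2BP3 replicate 3. Cholesterol synthesis (1 of 26 lower), lysosome (0 of 42 called), metallothionein (0 of 6) and replication-dependent histone genes (0 of 14) gave 1 call in all, which was lost without siIGF2BP3 replicate 3, and 4 lysosome genes were lower without siControl replicate 1. Among 63 G1/S and replication genes 3 fell, including both ribonucleotide reductase subunits RRM1 (-0.26, adjusted p = 0.00435) and RRM2 (-0.25, adjusted p = 0.00108). The interferon (1 of 41), integrated stress response (2 of 34) and p53 target lists (3 of 34) gave 6 calls in all, and the 3 p53 targets, all higher, were 0 without siControl replicate 3 and 1 without siIGF2BP3 replicate 2 or 3.

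Gene type, length and level also divided the calls. Protein-coding genes gave 508 rises and 266 falls of 12206. Long noncoding RNAs gave 42 rises and 4 falls of 1333 (3.15% and 0.3%), transcribed unprocessed pseudogenes 19 and 2 of 238 (7.98% and 0.84%), and small nucleolar RNAs 6 and 0 of 45. The share of rises went from 1.42% in the quintile of genes with the shortest summed exons to 7.79% in the longest, while the share of falls went from 2.68% to 0.813%. Median exon length was 6515 bases among rises, 3271 among falls and 4446 over all genes. Falls lay at high levels, with 219 of the 281 in the top quintile by mean level, and the median was 168 normalized CPM for falls, 48.9 for rises and 18.5 for all genes. Level and length were not separated from each other here. An offset that removed a trend on exon length in each library left 865 calls, 565 higher and 300 lower, of which 792 were shared with the 879.

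**Figure D4:**
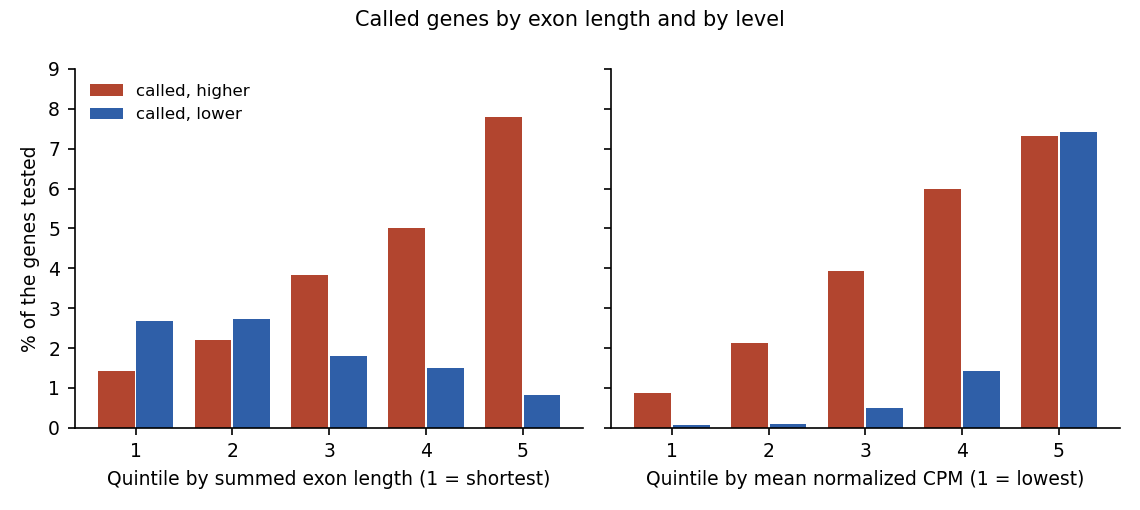
Share of tested genes called higher (red) or lower (blue) by quintile of summed exon length (left) and of mean normalized CPM (right), with 2951 or 2952 genes in each. Rises go from 1.42% to 7.79% with length, and falls reach 7.42% in the top quintile by level.

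Footprints were set beside the RNA as a description. Ratios are log2 of mean footprint CPM, siIGF2BP3 over siControl, with 0.5 CPM added. The siControl footprint libraries 2 and 3 differed by less than sampling noise and were counted as 1, and siIGF2BP3 footprint replicate 1 stood apart from the other 2. Of the 598 rises, 437 had at least 5 CPM of footprints in siControl, and 201 of these had a ratio above zero (median -0.02). Of the 281 falls 277 did, and 195 were below zero (median -0.06), against a median of -0.02 over 10625 genes. The share of those 10625 genes on each side of zero was not counted, and their median itself lay below zero. Without the replicate that stood apart the medians were -0.02, -0.05 and -0.02. The mitochondrial mRNAs had a median footprint ratio of 0.21 beside an RNA median of -0.31, and the ribosomal proteins one of 0.07 beside -0.10. The ratio was 0.14 for HSPA1A, with -0.05 without that replicate, and -0.17 for CALR. For IGF2 it was 0.19, and 0.03 without that replicate. SLC2A3, lower in RNA, was lower in footprints too (-0.45, and -0.40 without that replicate).

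**Figure D5:**
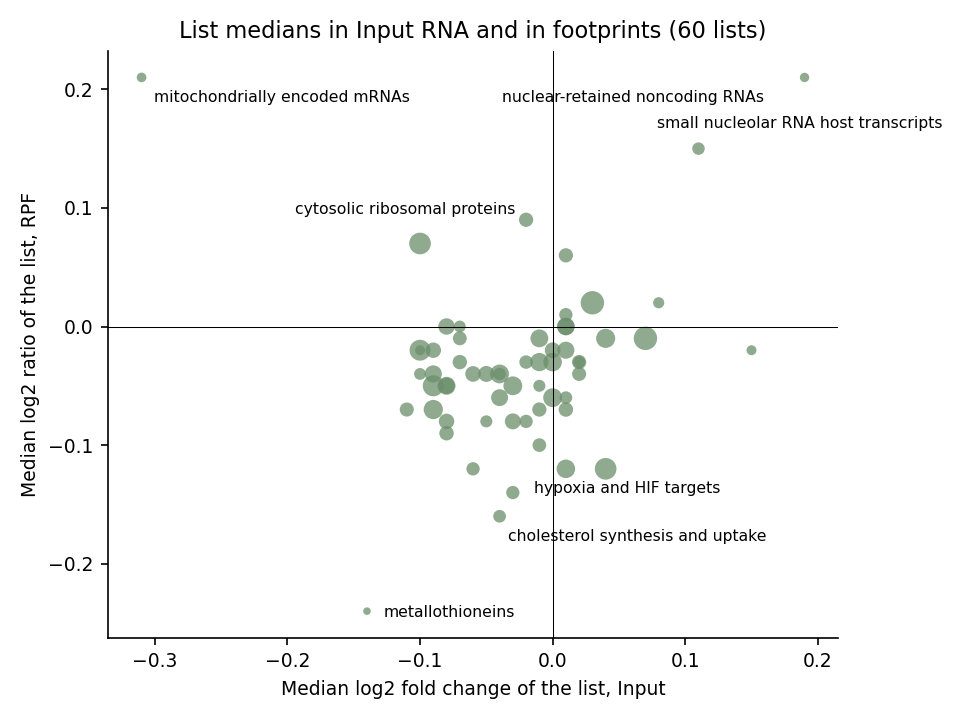
Median log2 fold change of each of the 60 lists in Input RNA (x axis) against its median log2 ratio in footprints (y axis), with point area following the number of genes tested. The mitochondrially encoded mRNAs lie at -0.31 in RNA and above zero in footprints.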

How the data were processed

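RNA (Input) and footprint libraries of HepG2 cells were analysed. The preparation of the Input libraries is not described in the sources used here. Per the labels and the study's methods, adapters and poor bases were removed by the authors with Cutadapt, STAR placed the reads on hg38 and featureCounts gave gene totals, with versions not given in the sources used here. The deposited values are estimated counts, fractional, as when reads are divided between genes, for 31.8% to 33.3% of detected genes in each Input library and for 63.2% to 66.0% in each footprint library. They were rounded, which changed a library total by at most 0.0234%. Genes were matched to GENCODE 44 for 58207 of 58721 IDs (99.1%), and 0.566% of counts were in unmatched IDs. Input totals ran from 11219750 to 14797573, and the number of counts and of libraries sets the precision.

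Genes passing filterByExpr were tested with edgeR 4.0.16 (TMM factors, robust quasi-likelihood test, R 4.3.3) on the 3 siControl against the 3 siIGF2BP3 Input libraries, adjusted by Benjamini-Hochberg at 0.05. The fit was tested on simulated data. DESeq2 1.42.0, other scalings, filters, gene types, a length offset, the replicate number as a block and omission of each library were the alternatives. Lists are described by counts and medians with no test. Named genes were IGF2BP3, the 15 largest non-overlapping rises and falls at a mean of 10 CPM or more, up to 4 called genes per direction in each list, and the 10 lowest p. CLK1, MT-ND1, MT-ND2, MT-ND3 and the genes given as not passing the test were added after their values were seen. Strand was not stated, so genes that overlap another, such as RBM5 with RBM6 or DNAJB1 with TECR, may hold its reads. Members and lists were chosen with earlier results of these data known.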

Additional observations from a re-analysis of the deposited data

How the results depend on the processing

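Of 3233 values of the 213 named genes under the alternatives, 0 changed direction and 453 no longer passed the threshold. These genes were named because they were called in the same libraries, which the alternatives reuse. A change of direction was thus unlikely from the start. The medians of 13 of the 60 lists, at most 0.15 in size, crossed zero under at least 1 alternative. DESeq2 called 718 genes (396 higher and 322 lower), of which 645 were among the 879 called here, and it gave 6581 genes no adjusted p. Upper-quartile factors gave 539 higher and 379 lower, which moved the share of higher calls from 68% to 58.7%. Leaving out genes with fractional counts left 6444 genes tested and 339 calls (224 higher and 115 lower). It removed all 13 mitochondrially encoded mRNAs and left 1 of the 85 cytosolic ribosomal protein genes. What lowered the count of calls was not tested. A minimum change of 0.58 on the log2 scale left 64 (60 and 4). The omission of each library in turn gave 444 to 907 calls, 332 to 473 higher and 112 to 437 lower. With the replicate number as a block there were 931 calls (599 and 332). Deviations from the group means correlated weakly between libraries of the same number (0.0551, 0.000436 and -0.0707). Pairs of different numbers gave -0.0756 to 0.081. With 3 libraries in each group such values cannot show whether replicates were paired, and the labels do not say. Fewer calls were made among genes of low level, with 0.881% of the lowest quintile by level called higher against 7.32% of the top quintile.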
